A study of Homo sapiens with 9 samples.

Results

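The S100 and annexin genes described here are 10 of the 60623 genes measured: S100A4, S100A6, S100A8, S100A9, S100A10, S100A11, S100A12, ANXA1, ANXA2 and ANXA5. They were chosen by gene name, with no measured value in the rule, and each name belonged to 1 Ensembl identifier. RNA-seq was performed on U937 cells, a human monocytic cell line, which carried the empty vector (U937-CTR, genotype label WT, here CTR cells), AML1-ETO (U937-AE, here AE cells) or ETO2-GLIS2 (U937-EG, here EG cells). Each line was sequenced at 0, 12 and 48 h of 5 µg/ml doxycycline, which turns on the construct, and all 3 lines received it. Both fusion proteins carried an HA tag and were delivered in a doxycycline-controlled retroviral vector, and each fusion line was grown from 1 clone, so a difference between lines and a difference between clones cannot be told apart. AML1-ETO joins the DNA-binding domain of RUNX1 to most of RUNX1T1, and ETO2-GLIS2 joins the ETO-family protein CBFA2T3 to the zinc fingers of GLIS2; both are found in acute myeloid leukemia. Each condition had 1 library, so no difference below has a replicate check and no p-value was computed.

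S100 proteins are small calcium-binding proteins with EF-hand motifs, and most of them act as dimers. Calcium binding opens a surface with which they hold other proteins, and several are released from myeloid cells and act on the receptors TLR4 and RAGE. Annexins bind phospholipid membranes in the presence of calcium, and some annexins and S100 proteins form joint complexes, of which annexin A2 with S100A10 and annexin A1 with S100A11 are the best known. In the monocytic lineage, levels of many of these genes increase as the cells mature, and S100A8 and S100A9 are among the most abundant transcripts of blood monocytes and neutrophils.

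Levels are given as FPKM, which corrects the reads of a gene for the length of its exons and for the reads of the whole library, so that genes of different length can be compared. The reads behind the values were recovered from the FPKM steps, and the 9 libraries held between 15136397 and 18443638 reads on genes. RUNX1T1, whose sequence the AML1-ETO construct carries, was at 0.512 FPKM before induction and 28.7 FPKM at 48 h in AE cells, and GLIS2 went from 2.39 to 8.85 FPKM in EG cells. Against CTR cells at the same time, GLIS2 in EG cells had log2 fold changes of -0.99 at 0 h, 0.90 at 12 h and 1.25 at 48 h. The check is therefore weaker for EG than for AE cells. Of 10 monocyte genes, 3 (CD14, CD68 and VCAN) stayed under 1 FPKM in all 9 libraries, whereas LYZ and MNDA reached 1517 and 159.6 FPKM. Of 9 markers of other cell types, 6 were at 0 in all libraries. The AE library at 48 h stood apart. There LYZ had 45.1 FPKM, against 332 to 1517 FPKM elsewhere, and the sum of 5 granule genes of immature myeloid cells was 102 FPKM, against 388 to 1746 FPKM. The summed level of the 10 monocyte genes was 148 FPKM there and 433 to 1690 FPKM elsewhere, but that gap in the sum was carried by LYZ. The other 9 monocyte genes summed to 103 FPKM there, 112 FPKM in CTR cells and 101 FPKM in EG cells at 48 h. In the earlier libraries they summed to 111 to 174 FPKM. Such a sum follows the most abundant genes and hides the others. Among genes with a mean of at least 1 FPKM, ITGAM and FCN1 as well as LYZ were more than 2-fold lower than in CTR cells at 48 h (11.7% of all genes). None of the list was more than 2-fold higher (11.8% of all genes). The median log2 fold change of the 6 monocyte genes at that level was -1.25. In such bulk RNA, fewer cells of a type and less RNA per cell cannot be told apart.

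Of the 10 genes, 7 lie on chromosome 1 (GRCh38.p14), where S100A9 (153357854-153361023), S100A12 (153373711-153375621), S100A8 (153390032-153422583), S100A6 (153534599-153535991) and S100A4 (153543621-153545806) share a cluster with other S100 genes. S100A10 (151982915-151993859) and S100A11 (152032506-152037004) form a pair 1321 kb away. ANXA1 is on chromosome 9 (73151865-73170393), ANXA2 on chromosome 15 (60347151-60397986) and ANXA5 on chromosome 4 (121667946-121696980). The 250 bases before the RefSeq start are printed for 4 genes as examples of the contrast in AE cells at 48 h: S100A4, S100A9 and S100A11 were lower there and ANXA1 was higher. S100A6, with a log2 fold change of -1.86 against 0 h, was lower too and is not printed, whereas S100A11 (-0.63) was not past 2-fold. S100A9 and S100A11 are the members with RUNX letters, so the printed windows do not stand for all genes that were lower. Each printed window is read 5′ to 3′ along the gene. Capitals mark letters of 5 motifs searched on both strands: RUNX (TGTGGT), ETS as bound by PU.1 (GAGGAA), C/EBP (TTGCNNAA), AP-1 (TGANTCA) and GLIS (TGGGGGGT).
S100A4, chr1:153545807-153546056, minus strand: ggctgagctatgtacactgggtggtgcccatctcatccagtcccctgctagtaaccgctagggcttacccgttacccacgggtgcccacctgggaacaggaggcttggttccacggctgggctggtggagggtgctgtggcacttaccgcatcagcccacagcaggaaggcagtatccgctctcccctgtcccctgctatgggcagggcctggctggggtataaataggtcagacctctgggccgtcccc
S100A9, chr1:153357604-153357853, plus strand: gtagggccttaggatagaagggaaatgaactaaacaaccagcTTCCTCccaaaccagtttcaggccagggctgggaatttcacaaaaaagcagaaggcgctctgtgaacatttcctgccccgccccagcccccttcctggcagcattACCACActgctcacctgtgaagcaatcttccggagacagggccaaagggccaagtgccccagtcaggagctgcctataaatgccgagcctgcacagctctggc
S100A11, chr1:152037005-152037254, minus strand: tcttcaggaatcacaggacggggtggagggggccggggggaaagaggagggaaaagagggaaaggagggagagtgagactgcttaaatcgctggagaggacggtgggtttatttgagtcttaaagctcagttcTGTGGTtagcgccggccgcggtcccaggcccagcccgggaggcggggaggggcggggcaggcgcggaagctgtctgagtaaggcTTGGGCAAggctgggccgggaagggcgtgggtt
ANXA1, chr9:73151615-73151864, plus strand: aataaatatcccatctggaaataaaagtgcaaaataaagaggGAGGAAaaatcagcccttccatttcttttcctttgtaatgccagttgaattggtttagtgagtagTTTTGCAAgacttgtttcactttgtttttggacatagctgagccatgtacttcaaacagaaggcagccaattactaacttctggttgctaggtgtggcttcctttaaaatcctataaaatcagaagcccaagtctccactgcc

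The S100A4 window held none of the 5 motifs, nor did those of S100A6, S100A10 and ANXA5. The RUNX letters stood in the windows of S100A9, on the opposite strand at 103 to 98 bases before the start, and of S100A11, at 117 to 112 bases. Over the 27305 RefSeq promoter windows of this length, 11.1% held them. The ETS letters were found for S100A8, S100A9 and ANXA1 (23.4% of all windows), the C/EBP letters for S100A11, S100A12 and ANXA1 (9.12%), and the AP-1 letters for S100A12 and ANXA2 (6.57%). No member held the GLIS letters, which occurred in 1.19% of all windows. A match of letters is a description of the sequence and not a binding site, and the windows leave out distant elements.

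The 10 genes covered a wide range of levels. S100A11 was the highest in uninduced CTR cells with 207 FPKM, followed by S100A4 with 109 FPKM and S100A6 with 60.3 FPKM. ANXA2 with 43.5 FPKM and ANXA5 with 43.0 FPKM came next, and this pair differed by less than counting error. S100A10 had 22.3 FPKM and ANXA1 had 7.57 FPKM. At the low end, S100A9 had 0.966 FPKM from 9 reads, S100A8 0.0690 FPKM from 1 read, and S100A12 no read. Thus 7 of the genes were well expressed in this line, while the calprotectin pair S100A8 and S100A9, and S100A12, were at or near the limit of detection. In the order of AE cells at 48 h, S100A4 had moved from the second place to the seventh, behind S100A11 (162 FPKM), ANXA2 (100.2 FPKM), ANXA1 (49.7 FPKM), S100A10 (47.5 FPKM), ANXA5 (37.7 FPKM) and S100A6 (24.6 FPKM).

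**Figure D1:**
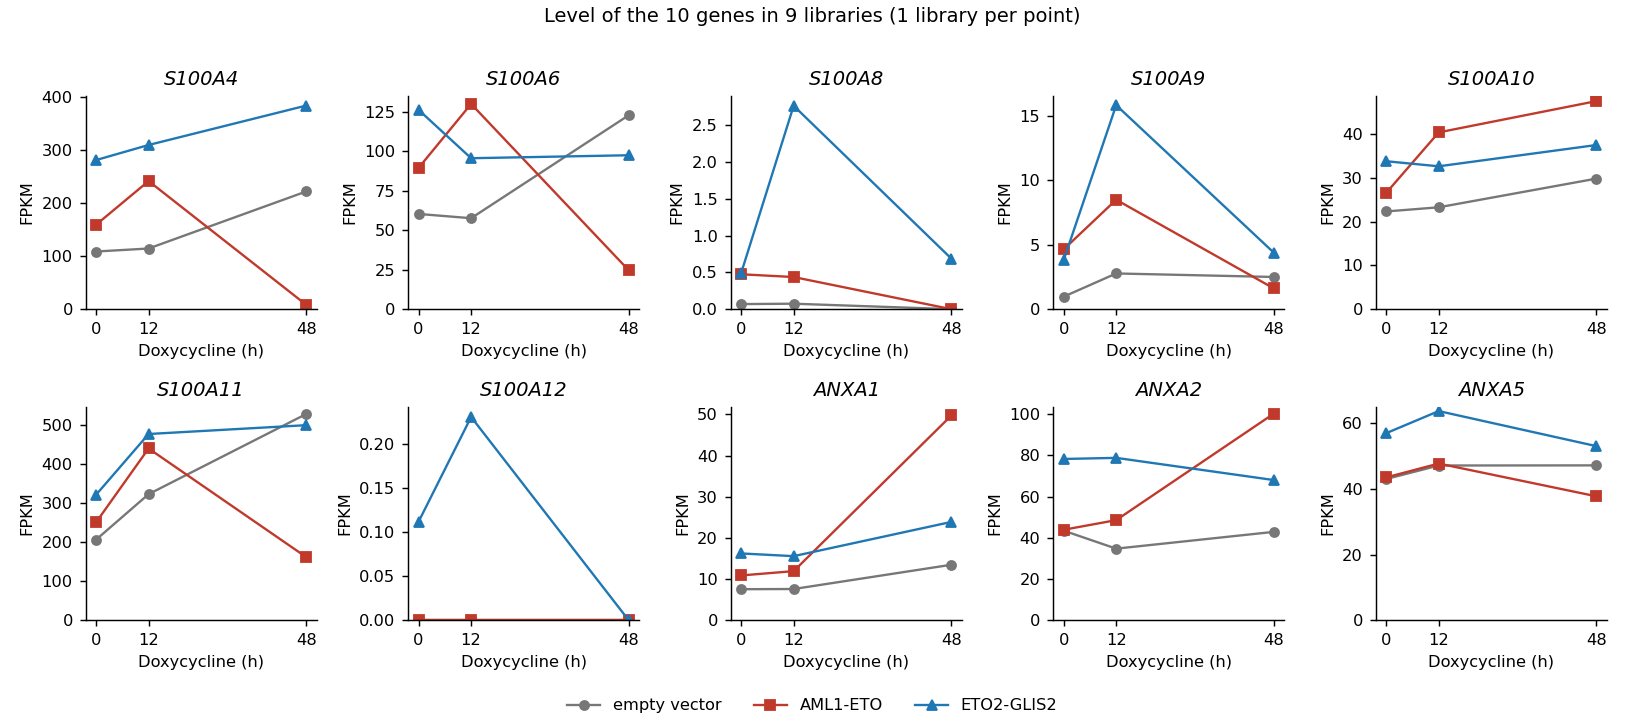
Level of each of the 10 genes (vertical axis, FPKM, from 0) against hours of doxycycline (horizontal axis) in the empty vector (grey circles), AML1-ETO (red squares) and ETO2-GLIS2 (blue triangles) lines, 1 library per point. S100A4, S100A6 and S100A11 had their lowest point in the AE library at 48 h (8.13, 24.6 and 162 FPKM) and ANXA1 and ANXA2 their highest (49.7 and 100.2 FPKM), and for S100A12 the grey line lies at 0 under the red one.

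For each line, the 48 h library was compared with its own 0 h library, which shows how the genes moved over the induction. A gene was called when it differed more than 2-fold and had a mean of at least 1 FPKM over both libraries. Of the 10 genes, 8 passed this filter at 48 h in each line, and S100A8 and S100A12 did not. In CTR cells, 4 of the 10 genes (S100A4, S100A6, S100A9 and S100A11) were called higher, where the same rule called 8.0% of all genes tested, and 0 were called lower (2.99% of all genes). S100A9 passed the filter there only through the 48 h library (0.966 FPKM at 0 h and 2.49 FPKM at 48 h). That count therefore rests on S100A4, S100A6 and S100A11. In AE cells, 2 genes (ANXA1 and ANXA2) were called higher (17.3% of all genes) and 3 (S100A4, S100A6 and S100A9) lower (11.3% of all genes). In EG cells, 0 genes were called in either direction, against 10.8% of all genes higher and 2.54% lower.

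The median log2 fold change of the 10 genes at 48 h was 0.63 in CTR cells, -0.42 in AE cells and 0.18 in EG cells. Over all genes tested it was 0.16, 0.22 and 0.16, and rescaling the libraries by their median ratio brought these to 0.02, 0.06 and 0.02. That shift bears on 3 of the calls. S100A4 and S100A6 in CTR cells were 2.04-fold higher as deposited and 0.87 above the median of all genes on the log2 scale, which is less than 2-fold, and ANXA2 in AE cells was 0.97 above it. All fold changes below are of the deposited values after adding 0.01 FPKM, and intervals are exact 95% intervals that cover counting error only.

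**Figure D2:**
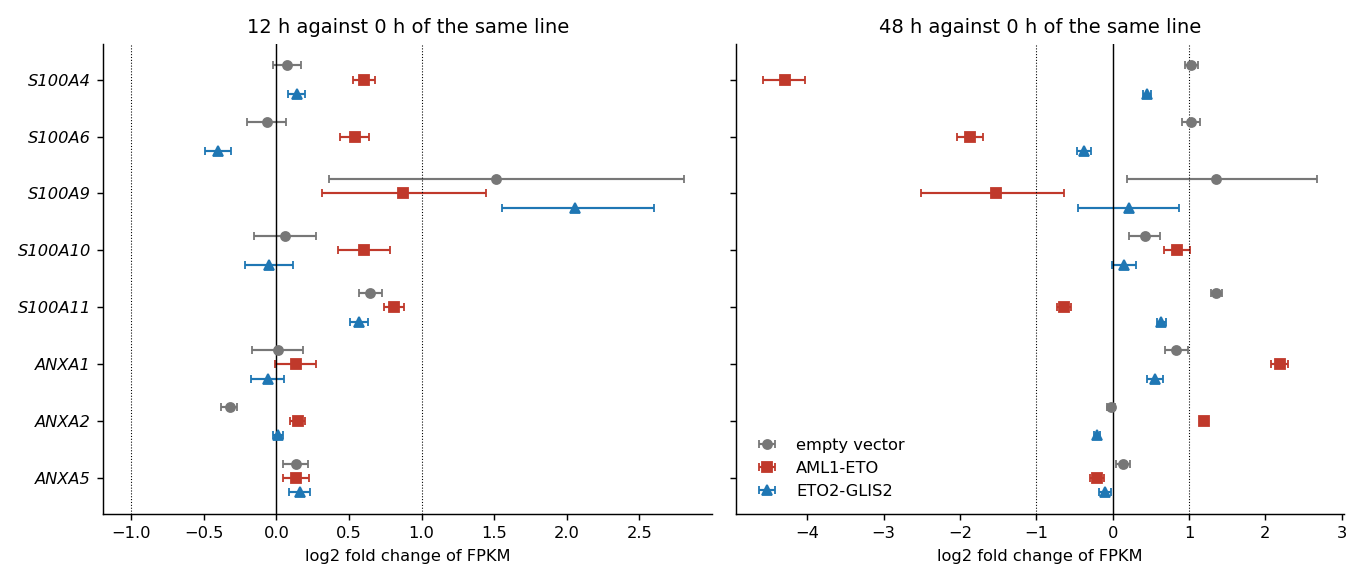
Log2 fold change of FPKM (horizontal axis) of the 8 genes with enough reads, 12 h against 0 h (left) and 48 h against 0 h (right) of the same line, with exact 95% counting intervals, and dotted lines at 2-fold. At 48 h the AML1-ETO points (red squares) spread from -4.29 for S100A4 to 2.19 for ANXA1, while the ETO2-GLIS2 points (blue triangles) stayed inside the dotted lines.

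S100A4, which binds non-muscle myosin and is also called metastasin, showed the largest difference from 0 h of the same line among the 8 genes that passed the filter. At 0, 12 and 48 h it had 109, 114 and 222 FPKM in CTR cells. In AE cells it had 159, 242 and 8.13 FPKM, from 2498, 3530 and 117 reads. In EG cells it had 281, 310 and 384 FPKM. Thus S100A4 was higher at 48 h than at 0 h in CTR and EG cells, and the AE library at 48 h lay far below the other 8, which ranged from 109 to 384 FPKM. After 48 h its log2 fold change came to 1.03 (0.94 to 1.12) in CTR cells, -4.29 (-4.57 to -4.02) in AE cells and 0.45 (0.39 to 0.50) in EG cells. In AE cells the level at 12 h was still 1.52-fold above that at 0 h, so the 29.7-fold lower level at 48 h was reached after 12 h.

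S100A6, or calcyclin, lies 7.63 kb from S100A4. It had 60.3, 57.6 and 123 FPKM in CTR cells, 89.5, 130 and 24.6 FPKM in AE cells, and 126, 95.6 and 97.5 FPKM in EG cells at 0, 12 and 48 h. As for S100A4, the lowest of the 9 libraries was the AE library at 48 h. At 48 h its log2 fold change was 1.03 in CTR cells, -1.86 (-2.04 to -1.70) in AE cells and -0.37 in EG cells. The S100A4 level was 1.78 to 1.99 times that of S100A6 in all 3 CTR libraries and in AE cells at 0 and 12 h. In contrast, it was 0.331 times that of S100A6 in AE cells at 48 h, so S100A4 was reduced further than its neighbour, and it was 2.23, 3.24 and 3.94 times that of S100A6 in EG cells.

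S100A11, or calgizzarin, is a partner of annexin A1. It went from 207 to 323 and 529 FPKM in CTR cells, which is the highest value of any of the 10 genes. It went from 322 to 478 and 500.2 FPKM in EG cells, and from 251 to 440 and 162 FPKM in AE cells. At 12 h it was higher than at 0 h in all 3 lines. The log2 fold changes were 0.65 (0.57 to 0.73) in CTR cells, 0.81 (0.74 to 0.88) in AE cells and 0.57 (0.51 to 0.63) in EG cells. The interval of AE cells lay above the other intervals, but only just above that of CTR cells (0.74 against 0.73). The median of all genes at 12 h was also higher in AE cells (0.18) than in CTR cells (0.14) and EG cells (0.11). Counting intervals do not cover such a shift, so the order of the lines is uncertain. At 48 h the log2 fold changes of S100A11 were 1.36 (1.28 to 1.43), -0.63 and 0.64. The value of AE cells is not past 2-fold against 0 h, but against 12 h of the same line it was 2.72-fold lower, with a log2 fold change of -1.44 (-1.53 to -1.36).

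S100A8 and S100A9 encode the subunits of calprotectin, the calcium- and zinc-binding complex of neutrophils and monocytes. S100A9 had 0.966, 2.77 and 2.49 FPKM in CTR cells (9, 24 and 22 reads) at 0, 12 and 48 h. In AE cells it had 4.63, 8.48 and 1.61 FPKM (44, 75 and 14 reads). In EG cells it had 3.78, 15.8 and 4.37 FPKM (40, 162 and 41 reads). The gene was therefore higher at 12 h than at 0 h in all 3 lines, and in the 2 fusion lines it was lower again at 48 h. At 12 h its log2 fold change was 1.51 (0.36 to 2.81) in CTR cells, 0.87 (0.32 to 1.44) in AE cells and 2.06 (1.56 to 2.60) in EG cells, and these intervals overlap between CTR cells and each fusion line. At 48 h it was -1.52 (-2.51 to -0.63) in AE cells. The call in CTR cells at 48 h is lost with a pseudocount of 1 FPKM, which gives 0.83.

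S100A8 was covered by few reads: 1, 1 and 0 in CTR cells, 7, 6 and 0 in AE cells, and 8, 44 and 10 in EG cells. Its levels were 0.487, 2.76 and 0.686 FPKM in EG cells, and the 12 h library was 5.67-fold above the 0 h library, with a log2 fold change of 2.48 (1.40 to 3.80). In AE cells the 7 reads at 0 h and none at 48 h put the log2 fold change at or below -0.40, the upper limit of its interval. Both calprotectin genes thus had their highest level in the same library, EG at 12 h. S100A9 was the higher of the pair in every library, 5.73 to 37.3 times the S100A8 level in the 7 libraries with any S100A8 read. S100A12, a RAGE ligand of granulocytes, had 1 read in EG cells at 0 h and 2 reads at 12 h, and no read in the other 7 libraries, so that no difference was detectable at this depth.

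S100A10, also called p11, no longer responds to calcium and is held in a complex by annexin A2. It had 22.3, 23.2 and 29.8 FPKM in CTR cells, 26.5, 40.3 and 47.5 FPKM in AE cells, and 33.8, 32.6 and 37.5 FPKM in EG cells. The highest level was that of the AE library at 48 h, where S100A4, S100A6 and S100A11 were at their lowest. Its log2 fold change at 48 h was 0.42 (0.21 to 0.62) in CTR cells, 0.84 (0.67 to 1.01) in AE cells and 0.15 in EG cells, none of them past 2-fold. S100A11, its neighbour at a distance of 38.6 kb, was 9.27 to 17.8 times the S100A10 level in 8 libraries and 3.41 times that level in AE cells at 48 h.

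ANXA1 encodes annexin A1, a glucocorticoid-induced protein that limits inflammation through the receptor FPR2. It had 7.57, 7.61 and 13.5 FPKM in CTR cells, 10.9, 11.9 and 49.7 FPKM in AE cells, and 16.2, 15.6 and 23.9 FPKM in EG cells. All 3 lines had their highest level at 48 h, and the AE library was 2.08 times the next highest. At 48 h its log2 fold change was 0.83 (0.68 to 0.99) in CTR cells, 2.19 (2.08 to 2.30) in AE cells and 0.56 (0.45 to 0.66) in EG cells. At 12 h it lay between -0.06 and 0.13 in all 3 lines, so most of the difference in AE cells arose after 12 h, as it did for S100A4.

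ANXA2, whose product forms a tetramer with S100A10 at the plasma membrane and promotes plasmin formation, had 43.5, 34.8 and 42.9 FPKM in CTR cells. It had 43.9, 48.6 and 100.2 FPKM in AE cells, and 78.2, 78.7 and 68.0 FPKM in EG cells. CTR and AE cells were alike at 0 h, and the AE library at 48 h was above the other 8 libraries. Its log2 fold change at 48 h was -0.02 (-0.07 to 0.03) in CTR cells, 1.19 (1.15 to 1.23) in AE cells and -0.20 in EG cells. Relative to the median of all genes the value of AE cells was 0.97, just under 2-fold, and with libraries rescaled by their median ratio it was 1.04. ANXA2 has a near-identical processed pseudogene, ANXA2P2, listed at 14.1 to 48.0 FPKM. Reads that match both may be left out of the counts or placed at the wrong gene, so the ANXA2 level is uncertain. The S100A10 level was 0.414 to 0.830 times the ANXA2 level over the 9 libraries and 0.474 times in AE cells at 48 h; the exon length behind the ANXA2 value (8824 bases) sets the size of this ratio, which is no measure of the complex.

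ANXA5 encodes annexin A5, which binds exposed phosphatidylserine and serves as a reagent for dying cells. It had 43.0, 47.1 and 47.2 FPKM in CTR cells, 43.5, 47.7 and 37.7 FPKM in AE cells, and 56.9, 63.7 and 53.0 FPKM in EG cells. Its log2 fold change against 0 h lay between -0.20 and 0.16 in every line and time, the narrowest range among the 8 genes with enough reads. The ANXA1 level was 0.162 to 0.451 times that of ANXA5 in 8 libraries and 1.32 times in AE cells at 48 h.

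The sum of the 10 genes was 493, 611 and 1010 FPKM in CTR cells, 630, 970 and 431 FPKM in AE cells, and 919, 1092 and 1169 FPKM in EG cells. S100A11 was the highest of the 10 genes in every library. CTR cells at 48 h and AE cells at 12 h had similar sums, and AE cells at 48 h the lowest.

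Few of the genes were called at 12 h against 0 h. The filter left 8 of the 10 in CTR and AE cells and 9 in EG cells. S100A9 was the only gene called in CTR cells, where 5.64% of all genes were called higher and 1.88% lower. It passed the filter there only through the 12 h library, with 24 reads against 9 reads at 0 h. In AE cells 0 of the 10 genes were called (6.57% of all genes higher and 2.39% lower), and the 8 that passed the filter ranged from 0.13 for ANXA1 and ANXA5 to 0.87 for S100A9 on the log2 scale. The median of all genes was 0.18 in that comparison, and ANXA1, ANXA5 and ANXA2 (0.15) lay below it. In EG cells S100A8 and S100A9 were called higher, against 3.03% of all genes, and 0 were called lower, against 1.46%. S100A8 passed the filter there only through the 12 h library, in which it was high, so that this count rests on S100A9. From 12 to 48 h of AE cells, 4 genes (S100A4, S100A6, S100A9 and S100A11) were called lower (10.2% of all genes) and 2 (ANXA1 and ANXA2) higher (9.12% of all genes).

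The lines already differed before doxycycline. For a difference in differentiation between the uninduced fusion lines, the study proposes leaky expression of the fusion proteins. RUNX1T1 was detected in AE cells before induction. GLIS2, in contrast, was lower in uninduced EG than in uninduced CTR cells, with a log2 fold change of -0.99. Whether leaky expression had a part in the levels of the 10 genes was not tested. Compared with CTR cells at 0 h, 4 genes were called higher in uninduced EG cells: S100A4 (2.59-fold), S100A6 (2.09-fold), S100A9 (3.92-fold) and ANXA1 (2.15-fold), where 3.42% of all genes were called higher and 2.99% lower. Uninduced AE cells had S100A9 4.80-fold higher and no other call, against 2.67% of all genes higher and 2.24% lower. In both comparisons S100A9 passed the filter only through the fusion line, as uninduced CTR cells had 0.966 FPKM. At 12 h AE cells had 2.11-fold more S100A4, 2.26-fold more S100A6 and 3.06-fold more S100A9 than CTR cells, where 4.40% of all genes were called higher, and 0 of the 10 genes were called lower, against 4.37% of all genes. EG cells at 12 h had 5 genes called higher, where 2.57% of all genes were, and 0 lower, against 4.36%. These were S100A4 (2.71-fold), S100A9 (5.71-fold), ANXA1 (2.05-fold), ANXA2 (2.27-fold) and S100A8, whose 44 reads against 1 put its log2 fold change at 5.04 with a wide interval (2.67 to 10.6). Here too S100A8 passed the filter only through the EG library. Thus S100A4 and S100A6 were higher in AE than in CTR cells at 12 h and lower at 48 h. At 48 h AE cells stood at 27.3-fold less S100A4, 5.00-fold less S100A6 and 3.26-fold less S100A11 than CTR cells (11.7% of all genes called lower), and at 3.68-fold more ANXA1 and 2.34-fold more ANXA2 (11.8% of all genes called higher). EG cells had 0 of the 10 genes called against CTR cells at 48 h, where 4.15% of all genes were called higher and 2.53% lower. The S100A11 levels were within 1.06-fold (500.2 and 529 FPKM), and the largest differences among the 8 genes that passed the filter were 1.77-fold for ANXA1, 1.75-fold for S100A9 and 1.73-fold for S100A4. S100A8, which did not pass it, had 10 reads in EG cells and none in CTR cells, with a log2 fold change of at least 1.08 by its interval. These comparisons share the CTR libraries with one another.

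The S100 cluster on chromosome 1, from S100A9 to S100A1, spans 274 kb, and 13 protein-coding genes lie wholly within it. S100A7 and S100A7A were at 0 in all libraries, and S100A14 and S100A16 reached at most 0.203 and 0.248 FPKM. The genes beside S100A4 were chosen for description after their values had been seen. In AE cells S100A3 had 25 reads (1.79 FPKM) before induction, 17 reads (1.31 FPKM) at 12 h and no read at 48 h, which puts the log2 fold change at or below -2.53, the upper limit of its interval. In CTR and EG cells S100A3 had 10 to 27 reads in each library. S100A2 had 5, 13 and 1 reads in AE cells and S100A5 had 2, 3 and 0 reads, counts too low to read a difference from. At the far end of the cluster S100A1, which is known for its role in heart and skeletal muscle, went the other way, from 0.577 to 2.65 FPKM in AE cells (29 and 122 reads), with a log2 fold change of 2.18 (1.60 to 2.83). It was also higher at 48 h in CTR cells (17 and 56 reads, a log2 fold change of 1.77) and in EG cells (22 and 66 reads, 1.73). S100A13, which overlaps the position of S100A1 and reaches past the end of the span, went from 0.408 to 2.16 FPKM in AE cells (15 and 73 reads). Reads in the shared stretch may belong to either gene, so the values of this pair are uncertain. S100A13 was also higher at 48 h in CTR cells (6 and 46 reads) and in EG cells (13 and 69 reads). Among the cluster genes with reads in AE cells at 0 h, only this uncertain pair was higher at 48 h. The others were lower there, including S100A8 (7 and 0 reads) and S100A16 (7 and 2 reads), several of them at few reads.

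**Figure D3:**
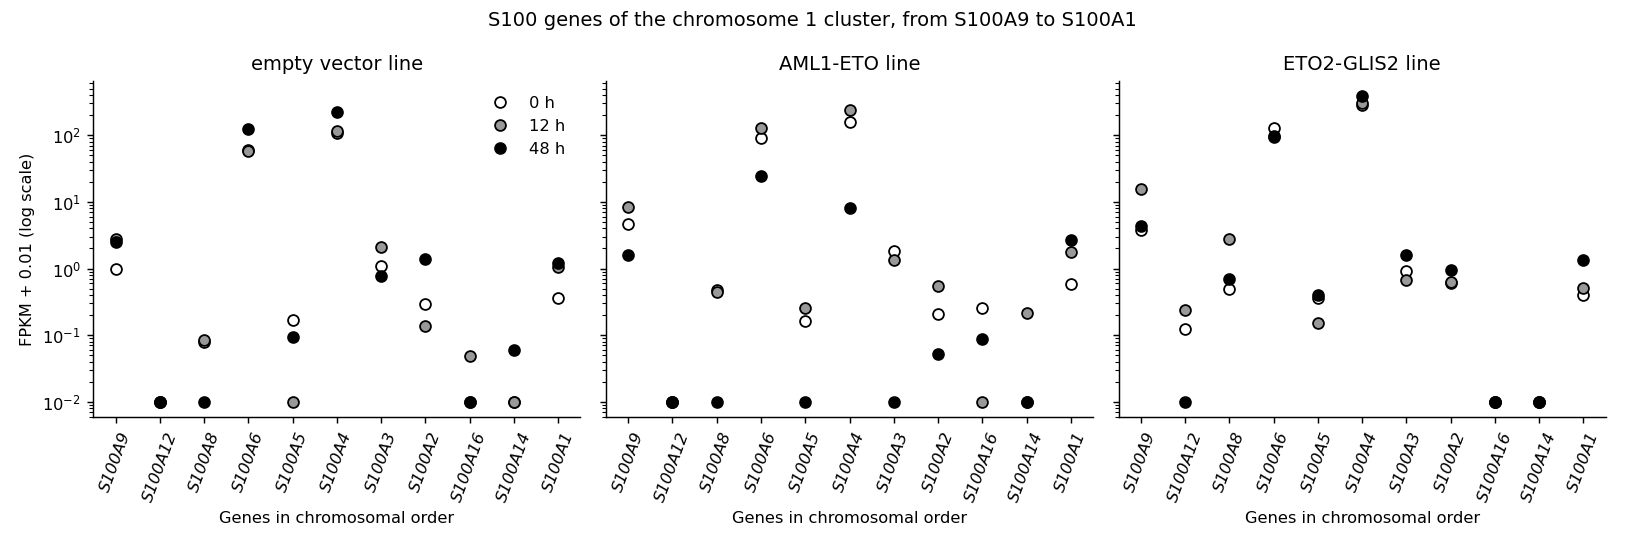
Level (vertical axis, FPKM + 0.01, log scale) of 11 S100 genes of the chromosome 1 cluster in chromosomal order, in 3 panels for CTR, AE and EG cells at 0 h (white), 12 h (grey) and 48 h (black). In the AE panel the black points of S100A9, S100A6, S100A4 and S100A3 lie below the white ones (for S100A4 8.13 against 159 FPKM). Those of S100A8, S100A5, S100A2 and S100A16 also lie below, at few reads, and that of S100A1 lies above (2.65 against 0.577 FPKM). Points at 0.01 are listed at 0.

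Of the further lists, genes that are named below without passing 2-fold at 10 FPKM or more were chosen after their values were seen. Among the other S100 genes, 13 were in the list and most were barely expressed: 1 of them passed the filter at 48 h in CTR cells, 3 in AE cells and 4 in EG cells. S100P, a RAGE ligand outside the chromosome 1 cluster, was the only one above 10 FPKM. It had 52.3, 127 and 298 FPKM in CTR cells, 68.0, 173 and 189 FPKM in AE cells, and 92.8, 145 and 360 FPKM in EG cells. S100P was thus called higher at 48 h in all 3 lines, with log2 fold changes of 2.51, 1.47 and 1.96, and in AE cells it stayed high where S100A4 was low. No other S100 gene was called lower in any line at 48 h. S100A1 and S100A13 were called higher in AE cells, and S100A13 and S100B in EG cells. S100A1 and S100A13 passed the filter only through the 48 h library, being under 1 FPKM at 0 h. The rule called 8.0% of all genes higher and 2.99% lower in CTR cells. In AE cells it called 17.3% and 11.3%, and in EG cells 10.8% and 2.54%. S100B, the S100 protein of glia, had 25, 51 and 1 reads in AE cells and 50, 79 and 103 reads in EG cells. The read at 48 h puts its log2 fold change in AE cells at -4.19, with a wide interval (-9.88 to -1.91), and its mean was under the filter.

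Of 10 other annexins, 5 passed the filter in each line at 48 h. In AE cells 1 was called lower, against 11.3% of all genes, and 0 higher, against 17.3%. In CTR and EG cells 0 were called, against 8.0% and 10.8% of all genes higher and 2.99% and 2.54% lower. ANXA11, which binds the calcium sensor ALG-2, had 34.3, 29.0 and 13.2 FPKM in AE cells at 0, 12 and 48 h, a log2 fold change of -1.38 (-1.46 to -1.30). In CTR and EG cells its change at 48 h was -0.05 and -0.10. ANXA6, the most abundant of them, changed by -0.14, 0.19 and 0.12 in CTR, AE and EG cells. Within the annexins of AE cells, ANXA1 and ANXA2 were therefore higher, ANXA11 lower, and ANXA4, ANXA5, ANXA6, ANXA7 and ANXA9 less than 2-fold from 0 h.

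Beside the shares of all genes called at 48 h (8.0% higher and 2.99% lower in CTR cells, 17.3% and 11.3% in AE cells, 10.8% and 2.54% in EG cells), the list of 12 receptors and partners held 2 genes called higher (AGER and PLAUR, at 0.88 and 0.89 relative to the median of all genes) and 0 lower at 48 h in CTR cells. In AE cells 3 were called higher (AGER, CD36 and FPR2) and 2 lower (AHNAK and PLAUR), and in EG cells 2 higher (AGER and FPR2) and 0 lower. CD36 in AE cells and FPR2 in EG cells passed the filter only through the 48 h library, in which they were high. AHNAK, a giant scaffold protein held at the membrane by the S100A10 and annexin A2 complex, had 60.8, 31.3 and 5.89 FPKM in AE cells, with a log2 fold change of -3.37 (-3.44 to -3.30) for the last of these. Its levels were 62.4, 56.4 and 44.6 FPKM in CTR cells and 66.4, 57.3 and 64.6 FPKM in EG cells. AHNAK was thus lower where both subunits of its binding complex were at their highest. AGER, which encodes RAGE, the receptor of several S100 proteins, had 4.62, 6.74 and 16.8 FPKM in AE cells and was called higher in all 3 lines, with log2 fold changes of 1.03 in CTR, 1.86 in AE and 1.14 in EG cells; relative to the median of all genes the values of CTR and EG cells were 0.88 and 0.98, under 2-fold. FPR2, the annexin A1 receptor, had 2.18, 4.24 and 7.58 FPKM in AE cells, where ANXA1 was higher too. CD36, a fatty acid receptor also bound by S100A8 and S100A9 complexes, had 0.166, 0.947 and 6.72 FPKM there, and at most 0.699 FPKM in the other 2 lines. TLR4, the receptor for calprotectin, was not called in any line, with log2 fold changes at 48 h of 0.55, -0.08 and 0.57.

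All 12 other EF-hand calcium sensors passed the filter. The shares of all genes called at 48 h are those given beside the receptors and partners. CALM2, which encodes calmodulin, was called higher at 48 h in CTR cells (log2 fold change 1.22) and in AE cells (1.06, or 0.84 relative to the median of all genes, under 2-fold), while CALM3 was not called in any line. EFHD2, or swiprosin-1, had 116, 89.7 and 48.9 FPKM in AE cells, a log2 fold change of -1.25 (-1.32 to -1.17), and was called in no other line. GCA and PDCD6 were called higher in AE cells and PDCD6 in EG cells, all at levels under 10 FPKM. In AE cells these calls lie at 0.87 and 0.95 relative to the median of all genes, under 2-fold. PDCD6 passed the filter in both fusion lines only through the 48 h library.

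**Figure D4:**
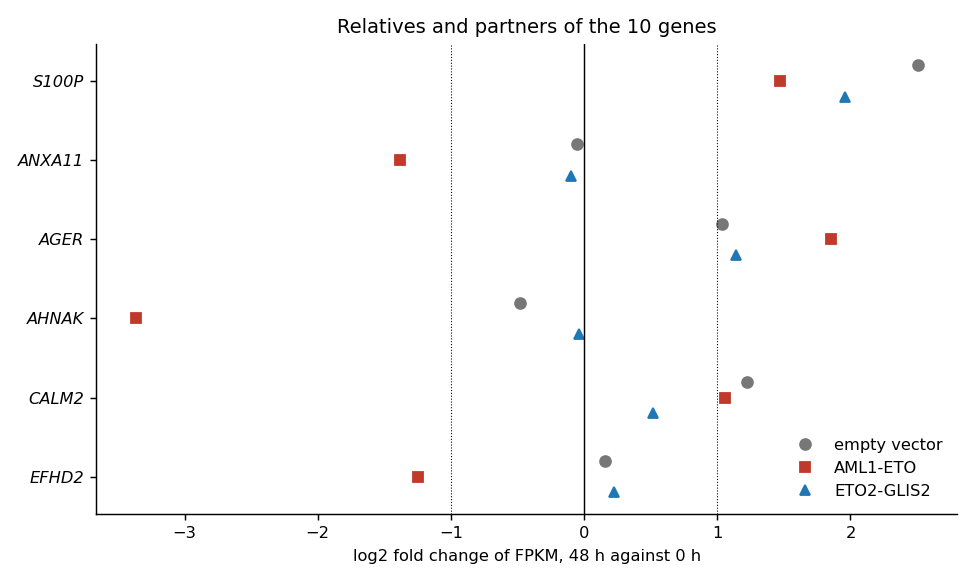
Log2 fold change of FPKM at 48 h against 0 h (horizontal axis) of 6 relatives and partners of the 10 genes in the empty vector (grey circles), AML1-ETO (red squares) and ETO2-GLIS2 (blue triangles) lines, with dotted lines at 2-fold. S100P lies to the right of the 2-fold line in all 3 lines (2.51, 1.47 and 1.96), and AHNAK (-3.37), ANXA11 (-1.38) and EFHD2 (-1.25) lie to the left of it in AE cells.

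The likeness of the patterns was described by the Pearson correlation of log2(FPKM + 0.01) over the 9 libraries, which share 3 lines and a time course and are not independent. S100A4 and S100A6 were alike, with r of 0.93, and with 0.76 without the AE library at 48 h. ANXA1 went with ANXA2 (0.86, and 0.80 without that library) and with S100A10 (0.87, and 0.80 without it), and S100A8 with S100A9 (0.77, and 0.74 without it). S100A4 and ANXA1 differed in this respect. Their r was -0.50 over 9 libraries and 0.97 over the other 8, so that they moved together in all libraries but the AE library at 48 h. S100A4 and S100A10 behaved in the same way, with -0.29 and 0.90.

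Among 4706 other genes with a mean of at least 10 FPKM, those most like S100A4 were RETN (0.98), which encodes resistin, LGALS1 (0.98), which encodes galectin-1, and LY86 (0.98), which encodes MD-1. RETN had 48.5, 109 and 1.15 FPKM in AE cells, and LGALS1 had 148, 193 and 18.0 FPKM. Without the AE library at 48 h their r with S100A4 was 0.88 for each. The nearest to S100A6 were NELFB (0.98), H3F3A (0.96) and CENPW (0.96), and to S100A11 GYPC (0.99), LMO4 (0.96) and IL32 (0.96). S100A9 was most like LRPAP1 (0.94), LAMP1 (0.93) and GLA (0.92), which encode a receptor chaperone, a lysosomal membrane protein and a lysosomal enzyme. For ANXA1 the nearest were NRBF2 (0.99), UBA7 (0.97) and GABARAPL2 (0.96). UBA7, the activating enzyme for ISG15, had 12.7, 16.8 and 82.5 FPKM in AE cells. ANXA2 was most like CLTC (0.97), the clathrin heavy chain, ATP6V1F (0.96) and SNX4 (0.95), S100A10 most like RAB2A (0.97), NDUFB5 (0.96) and ANAPC5 (0.96), and ANXA5 most like ATG3 (0.97), NDUFA12 (0.97) and RPN2 (0.96).

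The same library also stood apart in the myeloid transcription factors that are known to act on many genes of the lineage. SPI1, which encodes PU.1, had 92.6, 53.1 and 11.9 FPKM in AE cells at 0, 12 and 48 h, and CEBPA had 98.5, 37.5 and 6.62 FPKM. Both were thus already lower at 12 h, when S100A4, S100A6, S100A9 and S100A11 were above their 0 h level, and lower still at 48 h. In CTR cells SPI1 had 67.0, 76.9 and 97.3 FPKM and CEBPA 61.0, 71.7 and 82.9 FPKM. In EG cells SPI1 had 88.0, 76.8 and 80.9 FPKM, while CEBPA had 49.2, 27.0 and 24.5 FPKM. Whether these genes had a part in the levels of the S100 and annexin genes was not tested.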

How the data were processed

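RNA-seq of total RNA was analysed from 9 libraries, 1 for each of 3 lines at 3 times. Per the submitters' processing notes and the study's methods, reads were aligned to hg38 with HISAT2 (2.0.5), handled with SAMtools (1.7) and counted on genes with HTSeq (0.9.1) at its default settings, and the authors deposited FPKM for every gene. The study's methods name an Illumina TruSeq RNA kit for the libraries, and do not say whether the strand was kept. The annotation version is not given in the sources used here.

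Reads were recovered from the steps of the deposited FPKM in Python (3.11.15) using scipy (1.17.1), pandas (2.3.3) and numpy (2.4.6), which gave whole reads for 23874 (99.9%) of 23889 genes above 0 in at least 3 libraries, and were used for the intervals. The method was tested on simulated data. For 8 of the 10 genes the recovered exon length equals that of the annotation at hand, and ANXA2 and S100A12 differ from it. No exon of the 10 genes overlaps another gene except in S100A6, where 3.81% of the exon bases lie opposite another gene. Plots were drawn with matplotlib (3.10.9).

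Samples were grouped by the titles and characteristics of the labels. Fold changes are log2 of FPKM plus 0.01, and a gene was called past 2-fold with a mean of at least 1 FPKM over both libraries. There is no replicate, so no test was made. Exact Clopper-Pearson intervals (95%) cover counting error only, since the libraries carry no molecular identifiers and copies of 1 molecule count as several reads. The members and lists were chosen with earlier results of these data known. Named are all 10 members, the genes of the other lists past 2-fold at 48 h in at least 1 line with a mean of at least 10 FPKM over those libraries, the 3 genes most like each member, and RUNX1T1 and GLIS2 as a check of the labels. Promoters and coordinates are from RefSeq (GRCh38.p14). All 10 members had a promoter there.

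Alternatives covered the pseudocount, the filter, the scaling, the fold threshold, the reference library and repeated gene names; summing ANXA2 with ANXA2P2 was added after seeing the data. ChIP-seq was not analysed here. Some genes of the lists are not reported here.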

Additional observations from a re-analysis of the deposited data

Results flagged for a closer look

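ANXA2 was marked because its values had opposite signs in CTR and AE cells at both times. Its log2 fold change was -0.32 at 12 h and -0.02 at 48 h in CTR cells, and 0.15 and 1.19 in AE cells. At 48 h AE cells exceeded CTR cells by 1.21 on the log2 scale. With 1 library per condition this difference was not tested, and the empty vector value at 48 h has an interval that includes 0 (-0.07 to 0.03).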

How the results depend on the processing

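No paired analysis was possible because each condition had 1 library and the labels carry no replicate numbers. No direction of a called gene was reversed. Without the filter on low values, 1 gene was lower at 48 h in CTR cells and 1 in EG cells, instead of 0 in each, since genes with few reads then enter. Rescaling by the median ratio left 2 genes higher in CTR cells, instead of 4; S100A4 (0.90) and S100A6 (0.89) fell below 2-fold on the log2 scale. With a pseudocount of 1 FPKM, 3 genes were higher in CTR cells, since S100A9 (0.83) lost its call. At a threshold of 1.5-fold, 1 gene was higher in EG cells, instead of 0. With the change of CTR cells subtracted, 2 genes were lower in EG cells, instead of 0: S100A6 (-1.40) and S100A9 (-1.15). The median of the 10 genes there was -0.43, instead of 0.18. In AE cells 4 genes were then lower, instead of 3, as S100A11 (-1.99) was added. The share of all genes called under each alternative was not computed. The other 45 counts stayed within 1.5 times the main count. Of 16 medians, 15 stayed between the second lowest and second highest change of a single gene in the main setting. That range is wide (-4.29 to 1.19 in AE cells), so few medians could leave it. The median of AE cells counts as inside, although it went from -0.42 to -1.16 with the change of CTR cells subtracted. Of the values of single genes, 44 fell outside the counting interval of the main value and 116 did not. Many of the unmoved values could not have moved. Summing over repeated gene names changes nothing where each name has 1 identifier, and adding ANXA2P2 can change no single gene but ANXA2. The same holds for part of the unmoved counts and medians, so these totals are no measure of how stable the results are. Depth limits S100A8, S100A9 and S100A12, which had at most 44, 162 and 2 reads.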

Other observations

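Of 5 genes of immature myeloid granules, ELANE, PRTN3 and AZU1 had lower levels at 48 h than at 0 h in all 3 lines. In AE cells at 0, 12 and 48 h, ELANE, which encodes neutrophil elastase, had 520.02, 544 and 66.7 FPKM, and PRTN3, which encodes proteinase 3, had 902, 640 and 20.7 FPKM. CTSG, or cathepsin G, had 83.8, 63.4 and 2.59 FPKM there, whereas its log2 fold change at 48 h was 0.40 in CTR cells and -0.07 in EG cells. MPO stayed under 1 FPKM in all libraries. Of the 5 genes, 2 were called lower at 48 h in CTR cells (2.99% of all genes), 4 in AE cells (11.3%) and 3 in EG cells (2.54%). LYZ, which encodes lysozyme, had 970, 1346 and 45.1 FPKM in AE cells, 519, 775 and 380 FPKM in CTR cells, and 1283, 1517 and 332 FPKM in EG cells.

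At 48 h, 8.0% of all genes were called higher and 2.99% lower in CTR cells, 17.3% and 11.3% in AE cells, and 10.8% and 2.54% in EG cells. Of 10 monocyte maturation genes, 1 was called higher and 0 lower at 48 h in CTR cells, 1 higher and 1 lower in AE cells, and 2 higher and 2 lower in EG cells. Of 8 myeloid transcription factors, 2 were called higher and 1 lower in CTR cells, 2 higher and 4 lower in AE cells, and 0 higher and 3 lower in EG cells. CEBPE is among those called higher in CTR and AE cells, and relative to the median of all genes it lay at 0.94 and 0.97, under 2-fold. Not all maturation regulators were lower in AE cells. KLF4, a monocyte transcription factor, had 6.62 FPKM before induction and 22.3 FPKM at 48 h there, and CEBPE, a factor of late granulocyte maturation, had 10.7, 17.6 and 24.4 FPKM. IRF8 was lower at 48 h in all 3 lines, with 88.7 to 51.1 FPKM in CTR cells, 91.9 to 9.82 FPKM in AE cells and 71.7 to 18.9 FPKM in EG cells, and was called in both fusion lines. EGR1, an immediate early gene, was lower at 12 h in every line, from 40.9 to 0.527 FPKM in CTR cells, from 66.4 to 2.71 FPKM in AE cells and from 19.6 to 0.802 FPKM in EG cells.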
